A study of Mus musculus with 2 samples.

Results

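The uterine alpha beta T cells described here were 202 of the 8603 cell barcodes that passed the quality limits, 74 of 3653 in the control library and 128 of 4950 in the conditional knockout (cKO) library. A barcode passed when it showed 500 or more genes and no more than 20% of its unique molecular identifiers (UMIs, each standing for 1 captured transcript) from mitochondrial genes. A passing barcode was a member when it held at least 1 UMI of Cd3e, Cd3g or Cd3d and at least 2 of the genes Trac, Trbc1, Trbc2, Cd4, Cd8a, Cd8b1 and Cd5. It also had to show fewer than 2 of Trdc, Tcrg-C1, Cd163l1, Blk and Il23r, no Epcam UMI and fewer than 3 UMIs of C1qa, C1qb and C1qc together. These genes chose the cells, so their levels describe the choice and are not results.

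Alpha beta T cells recognise peptides held on MHC molecules through a receptor of 2 chains, whose constant parts are encoded by Trac and by Trbc1 or Trbc2, and signal through the CD3 proteins. Helper cells carry the co-receptor CD4 and read MHC class II, and cytotoxic cells carry CD8 and read MHC class I. In the uterus they share the tissue with natural killer cells and gamma delta T cells, and part of them stay as tissue-resident memory cells.

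Uteri of 6-month-old females were digested whole with collagenase and DNaseI, freed of red cells and strained, and transcript 3-prime ends of single cells were sequenced in droplets. The control group carried floxed alleles of the planar cell polarity gene Prickle1 (Prickle1 f/f), and the cKO group carried the same alleles with a Cre expressed from the Ltf locus (Prickle1 f/f Ltf-cre, written Ltf-iCre in the design text), which is active in uterine epithelium. Both groups are labelled C57BL/6J wild-type in a separate genotype entry, which differs from the titles used for grouping. A group was a single library (n = 1) made from 3 pooled mice, so differences have no replicate check, every interval covers counting error only, and the genotype cannot be told apart from the animals or the preparation.

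The libraries held 45035801 UMIs (control) and 57145553 UMIs (cKO), with a median of 4650 and 5944 UMIs per passing barcode. Members had a median of 4599 UMIs (range 1497 to 38445) in control and 4432.5 UMIs (859 to 144373) in cKO. The libraries shared 5 passing barcode sequences, of which 0 were members. Prickle1 had 0 UMIs in control members and 1 UMI in cKO members, so the deletion cannot be checked in these cells.

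The Cd3 step and the steps that separate T cell kinds set the number of members. In control 202 passing barcodes had a Cd3 UMI, 116 of these had at least 2 alpha beta genes, and 77 of those had fewer than 2 gamma delta genes. In cKO the same steps left 544, 298 and 131 barcodes. Just inside the limit, 25 control and 42 cKO members had exactly 2 alpha beta genes, and just outside it 25 and 34 barcodes had exactly 1. On the gamma delta side, 7 control and 17 cKO members had 1 such gene, and 6 and 22 barcodes that met every other criterion had 2.

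Part of the members carried the transcripts of a second cell. The summed UMIs of 48 markers of 8 other cell types (B, macrophage, dendritic, mast, epithelial, stromal, smooth muscle and endothelial cells) ranged from 73 to 435 in 10 control members and from 79 to 837 in 20 cKO members. In the other 64 and 108 members they reached at most 11 and 21 UMIs, and 36 and 57 of those cells had none. The 30 mixed barcodes were also deep, with a median of 20664 UMIs in control and 21839 in cKO against 4227.5 and 4094 in the others. They were 13.5% and 15.6% of the members but held 42.7% and 52.9% of their UMIs. Stromal markers led in 8 of the 10 control mixed barcodes, and dendritic markers led in 11 of the 20 in cKO. A doublet score of at least 0.25 was reached by 0 of the 10 and 4 of the 20 mixed barcodes and by none of the other members. Counts of list genes are therefore given for all members and for the 64 and 108 cells without mixed barcodes, a limit of 50 marker UMIs chosen after the data were seen. Where cells are counted below, those 64 and 108 cells are meant unless all members are named.

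**Figure D1:**
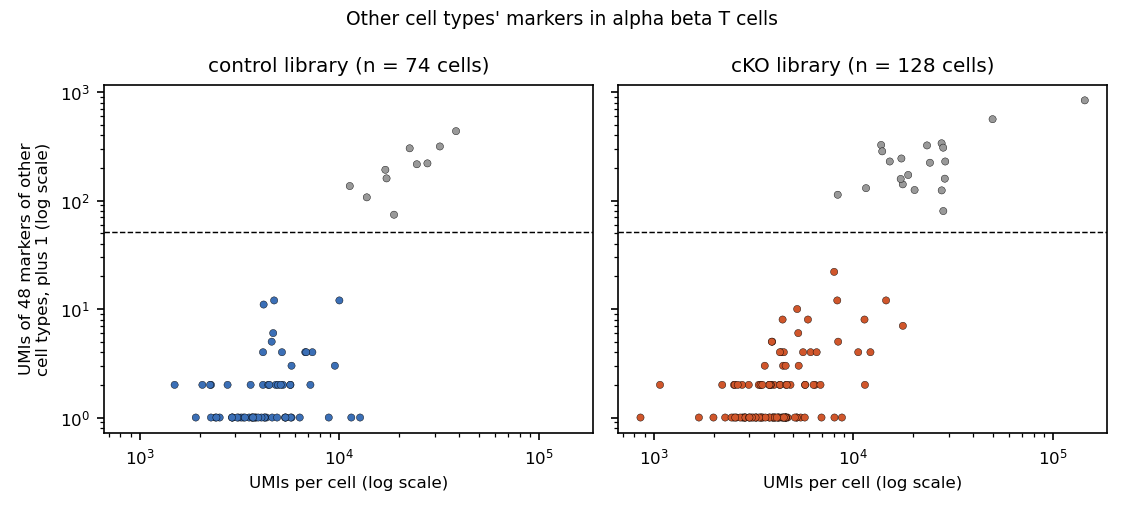
Each point is 1 alpha beta T cell, by its total UMIs (x axis, log scale) and its UMIs of 48 markers of other cell types plus 1 (y axis, log scale), with mixed barcodes in grey above the dashed limit of 50 UMIs. No member lies between 21 and 73 marker UMIs, so the mixed barcodes form a separate, deeper set in both libraries.

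The name was checked with genes other than the ones used, and 1 of them, Cd6, separated these cells from the neighbouring kinds in both libraries, in part of the cells. Cd6, which encodes a receptor of mature T cells and was not in the rule, had a UMI in 31 of 64 control cells (48.4%) and 64 of 108 cKO cells (59.3%). It had one in 1 of 77 control and 7 of 320 cKO gamma delta T cells, and in 0 of 76 and 11 of 543 natural killer cells, chosen by Trdc-type genes with Cd3 and by natural killer receptor genes without Cd3. Cd28, the co-stimulatory receptor, was seen in 46 and 77 alpha beta T cells and in 35 of 76 and 180 of 543 natural killer cells. Icos, Il7r and Tcf7 did not separate the kinds. Icos had a UMI in 54.7% and 56.5% of alpha beta T, 79.2% and 91.6% of gamma delta T, and 35.5% and 44.8% of natural killer cells. For Il7r the shares were 46.9% and 37.0%, 80.5% and 71.6%, and 5.26% and 1.10%. For Tcf7 they were 73.4% and 72.2%, 66.2% and 64.4%, and 52.6% and 51.7%. As a description of the choice, Trac, a gene of the rule, was seen in 49 cells (76.6%) and 91 cells (84.3%), against 9 (11.7%) and 22 (6.88%) gamma delta T cells and 7 (9.21%) and 63 (11.6%) natural killer cells. Trbc1 was also common in natural killer cells (63 of 76 and 457 of 543), so the near-identical Trbc1 and Trbc2 alone do not separate the kinds. Members entered on these 2 genes alone in 6 of 64 control cells (9.38%) and 8 of 108 cKO cells (7.41%), and Klre1 or Fcer1g, genes of natural killer and innate-like cells, was present in 4 and 6 of them.

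Marker lists of the nearest lymphoid kinds, which share genes with T cells, were present in part of the cells. The gamma delta list gave 11 UMIs in 7 control cells and 80 UMIs in 18 cKO cells, of which 37 were in 1 cell, with Cd163l1 and Blk at 0 in both. The natural killer list, which holds Eomes and Gzma of CD8 cells, gave 116 UMIs (388 CPM) in 24 control cells (Klrb1c and Klra8 at 0) and 374 UMIs (742 CPM) in 42 cKO cells (Ncr1 at 0). The list of group 2 innate lymphoid cells, which holds Gata3 of helper cells, gave 317 UMIs (1059 CPM) in 24 control cells, 157 of them in 1 cell, and 462 UMIs (916 CPM) in 53 cKO cells, 133 of them in 1 cell. In macrophage markers there were 2 and 4 UMIs, in B cell markers 1 and 2, in dendritic markers 17 and 9, and in epithelial markers 19 and 17. With cells holding 2 natural killer genes left out of all members, the median log2 ratios of the lists described below were -1.25 (interferon), 0.23 (immediate early) and -2.54 (cell cycle), against -1.24, 0.28 and -2.22 with them. With cells holding a Trdc or Tcrg-C1 UMI left out they were -1.38, 0.28 and -2.02. Neither setting was run without mixed barcodes, where 3 of 64 control and 14 of 108 cKO cells held at least 2 natural killer genes.

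The share of alpha beta T cells in all passing cells was similar, but their share among lymphoid cells was lower in the cKO library. They were 2.03% (exact 95% binomial interval 1.59 to 2.54%) of passing control barcodes and 2.59% (2.16 to 3.07%) of passing cKO barcodes. With Epcam-positive barcodes left out of the denominator, which were a larger part of the control library, the shares were 2.84% and 2.69%. Of all alpha beta T, gamma delta T and natural killer cells together they were 31.9% (25.9 to 38.3%; 74 of 232) in control and 12.01% (10.1 to 14.1%; 128 of 1066) in cKO. Gamma delta T cells numbered 79 and 354, and natural killer cells 79 and 584. Dissociation sets which cells are recovered, and the share in living tissue was not measured.

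The co-receptor genes were part of the rule, so their counts describe the members. In control 20 of 64 cells had a Cd4 UMI without Cd8a or Cd8b1 (31.2%; 20.2 to 44.1%), 12 had Cd8a or Cd8b1 only (18.8%; 10.1 to 30.5%), 0 had both and 32 had neither. In cKO 30 of 108 cells had Cd4 only (27.8%; 19.6 to 37.2%), 25 had Cd8a or Cd8b1 only (23.1%; 15.6 to 32.2%), 1 had both and 52 had neither. Cd4 cells were 62.5% (43.7 to 78.9%) and 54.5% (40.6 to 68.0%) of those with 1 kind of co-receptor. Over all members they were 57.1% (39.4 to 73.7%) and 62.1% (49.3 to 73.8%), so the order of the libraries turned with the mixed barcodes, and each pair of intervals overlaps. The mixed barcodes differed more, with 0 Cd4 and 3 Cd8 cells in control and 11 Cd4 and 0 Cd8 cells in cKO. Cells with neither co-receptor had a median of 4344 UMIs against 4112.5 (Cd4) and 4843.5 (Cd8) in control, and 3957 against 4116 and 4206 in cKO. Thinned to 1000 UMIs, 57 of 74 control members and 101 of 127 cKO members showed neither, so a missing co-receptor UMI does not show a cell without the protein.

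Part of the genes of effector and memory cytotoxic cells stood higher in cells with Cd8. Eomes, a transcription factor of CD8 memory and natural killer cells, was seen in 8 of 12 Cd8 and 1 of 20 Cd4 cells in control, and in 14 of 25 and 1 of 30 in cKO. In CPM, a gene's UMIs scaled to a total of 1000000 UMIs over the cells summed, it was 453 in Cd8 and 34.9 in Cd4 cells of control, and 470 and 39.8 in cKO, a log2 ratio of 3.50 and 3.44. Ccl5, a chemokine of activated CD8 cells, was 1242 against 81.4 CPM in control and 783 against 71.6 CPM in cKO. The granzyme gene Gzmk was seen in 5 of 12 against 2 of 20 cells in control and in 16 of 25 against 2 of 30 cells in cKO. Klrc1, which encodes the inhibitory receptor NKG2A, was seen in 5 of 12 against 0 of 20, and in 11 of 25 against 1 of 30. These 4 genes stood higher in Cd8 cells of both libraries. Gzma, another granzyme gene, did not keep 1 direction, with 174 CPM in Cd4 and 14.6 in Cd8 cells of control (2 and 1 cells) and 0 and 134 CPM in cKO (0 and 5 cells). Gzmb had 0 UMIs in Cd4 and Cd8 cells of both libraries. Over all genes measured, 10.3% in control and 11.1% in cKO were at least 2-fold higher in Cd8 cells.

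Of the genes higher in cells with Cd4, 3 are given here, chosen after their values were seen. Maf, a transcription factor of helper cells, was seen in 11 of 20 Cd4 and 2 of 12 Cd8 cells in control and in 23 of 30 and 6 of 25 in cKO. Its log2 ratio of Cd8 over Cd4 CPM was -3.98 in control and -3.30 in cKO. Il7r, the interleukin 7 receptor of long-lived T cells, was seen in 14 of 20 against 2 of 12 cells in control, and in 16 of 30 against 6 of 25 in cKO. Tnfrsf4, which encodes the co-stimulatory receptor OX40, was seen in 10 of 20 against 0 of 12, and in 8 of 30 against 1 of 25. Other genes of the naive and recirculating list, which holds Il7r, were divided. S1pr1, the receptor for exit from tissue, was 512 CPM in Cd4 and 131 in Cd8 cells of control and 366 and 179 in cKO. Tcf7 was 558 and 628 CPM in control, and 501 and 462 in cKO. The 3 genes stood lower in Cd8 cells, beside 10.5% and 9.06% of all genes that were at least 2-fold lower there.

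**Figure D2:**
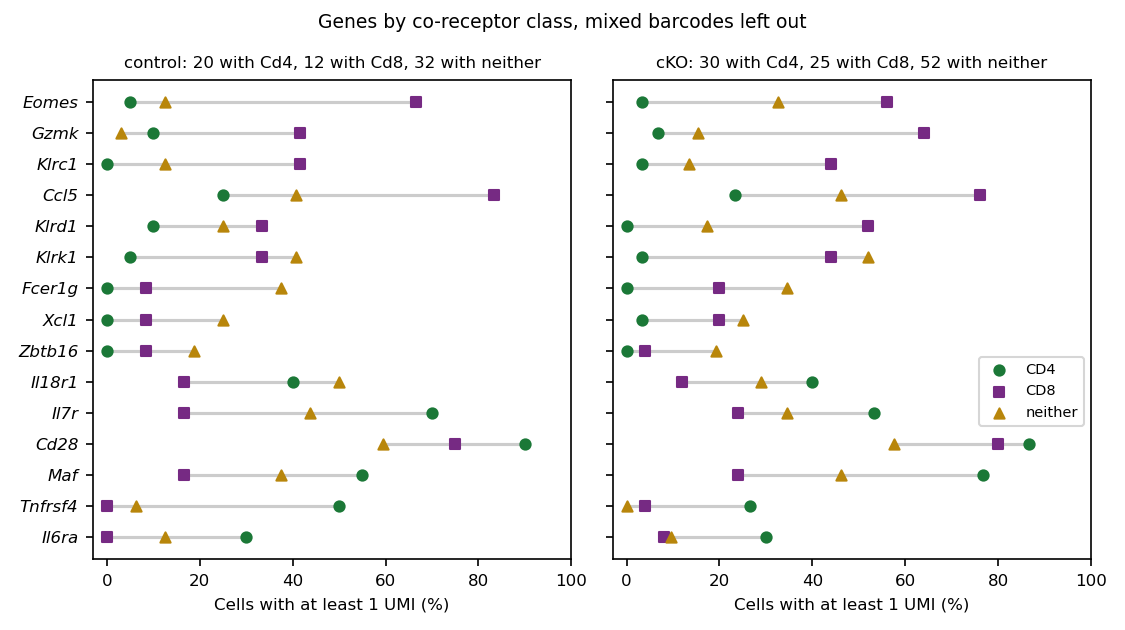
Share of cells with at least 1 UMI (x axis, percent) of 15 genes in Cd4 (circles), Cd8 (squares) and neither (triangles) cells of control (left) and cKO (right), without mixed barcodes. Eomes, Gzmk, Klrc1 and Ccl5 have their highest share in Cd8 cells of both libraries, and Klrk1, Fcer1g, Xcl1 and Zbtb16 in the cells with neither.

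Innate-like receptor genes were seen in cells with neither co-receptor and in Cd8 cells, and rarely in Cd4 cells. Fcer1g, the signalling chain that innate lymphocytes use, was seen in 12 of 32 such cells of control and 18 of 52 of cKO, in 1 of 12 and 5 of 25 Cd8 cells, and in 0 of 20 and 0 of 30 Cd4 cells. Klrk1, which encodes the activating receptor NKG2D, was seen in 13 of 32 and 27 of 52 cells with neither, in 4 of 12 and 11 of 25 Cd8 cells, and in 1 of 20 and 1 of 30 Cd4 cells. Cells with Klre1 or Fcer1g, a set drawn after the data were seen, were 16 of 64 in control (25.0%) and 30 of 108 in cKO (27.8%). They were 14 and 24 cells with neither co-receptor, 2 and 6 Cd8 cells and 0 Cd4 cells. Klre1 and Fcer1g went together, since 10 of 13 control and 21 of 28 cKO cells with Klre1 had Fcer1g, against 3 of 51 and 2 of 80 without it. Xcl1, the chemokine for cross-presenting dendritic cells, was seen in 9 of 16 and 15 of 30 cells of this set and in 0 of 48 and 4 of 78 other cells. Ikzf2, which encodes Helios, was seen in 14 of 16 and 13 of 30 cells of the set and in 9 of 48 and 18 of 78 others. Il7r was rarer in the set, with 3 of 16 and 3 of 30 cells against 27 of 48 and 37 of 78. Trac, which helped to choose the cells, was seen in 11 of 16 and 23 of 30 cells of the set. Trdc was seen in 0 and 5 of them, and Klra8, a natural killer receptor gene, in 0 and 8, which were all 8 Klra8-positive cells. Whether barcodes with natural killer cells beside T cells form part of the set was not tested.

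Helper lists differed in how many cells showed them. At 1000 UMIs per cell, the type 1 helper list had a UMI in 44 of 64 control and 69 of 107 cKO cells, and the regulatory list in 37 and 67. The type 2 list had one in 7 and 21 cells, the type 17 list in 16 and 30, and the follicular list in 16 and 29. These counts run over cells of every co-receptor class and lists of unequal length (8 type 1 and 12 regulatory genes), so they do not count helper cells. Part of the genes are not particular to helper cells. Among cells with Ikzf2, of the regulatory list, 2 of 23 in control and 5 of 31 in cKO had Cd4. Between libraries 0 of 8 type 1 genes and 0 of 6 regulatory genes were past 2-fold in either direction. Of the type 17 genes 1 of 4 was higher in cKO, and 2 of 4 type 2 and 2 of 4 follicular genes were lower. Of all genes 9.95% were higher and 5.94% lower, and these lists are short. Over all members 0 of 8 type 1 and 0 of 4 type 17 genes were past 2-fold. There 2 of 9 regulatory, 2 of 5 type 2 and 2 of 4 follicular genes were lower, with 1 regulatory and 1 type 2 gene higher. The shares of all genes were 7.12% lower and 8.37% higher. Foxp3, the factor of regulatory T cells, had a UMI in 0 of 64 and 0 of 108 cells, which allows up to 4.69% and 2.78% of cells with a UMI. Among all members 3 of 128 cKO cells had Foxp3, and all 3 were mixed barcodes. Tbx21, the factor of interferon gamma-producing helper cells, was seen in 9 control and 22 cKO cells, of which 2 and 3 were Cd4 cells. Il5, the eosinophil cytokine of type 2 cells, was seen in 3 cells of each library, and 88.5% of its 130 control UMIs and 93.1% of its 29 cKO UMIs lay in 1 cell. All of these Il5 cells had Gata3, and Il1rl1, the interleukin 33 receptor that group 2 innate lymphoid cells also carry, was seen in 3 and 2 of them. Il4, Il21, Il22 and Ccr6 were at 0 in both libraries.

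Interferon-response genes were lower in cKO alpha beta T cells across almost the whole list, which holds genes that type I or type II interferon induces. Of 27 measured genes (at least 10 UMIs over both libraries) 25 were at least 2-fold lower in cKO and 0 were higher, beside 5.94% lower and 9.95% higher of all 7464 genes measured. The median log2 ratio of cKO over control was -2.03 for the list and 0.14 over all genes. Over all 202 members the median was -1.24, with 16 of 28 genes lower (7.12% of all genes) and 0 higher (8.37%). The median of the list was -1.37 in Cd4 cells (9 of 16 lower; 7.29% of all genes), -1.89 in Cd8 cells (10 of 14; 7.79%) and -1.93 in cells with neither (21 of 24; 7.82%). The direction was thus the same in each co-receptor class.

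The promoters of 3 of these genes are shown because the motif bound by interferon-activated factors can be read in them. They are RefSeq promoters on GRCm38.p6, from 250 bases before to 50 bases after the gene start, written 5-prime to 3-prime on the gene's strand, with each match of GAAANNGAAA or its reverse TTTCNNTTTC in capitals.
Ifit1, chr19:34640639-34640938, plus strand: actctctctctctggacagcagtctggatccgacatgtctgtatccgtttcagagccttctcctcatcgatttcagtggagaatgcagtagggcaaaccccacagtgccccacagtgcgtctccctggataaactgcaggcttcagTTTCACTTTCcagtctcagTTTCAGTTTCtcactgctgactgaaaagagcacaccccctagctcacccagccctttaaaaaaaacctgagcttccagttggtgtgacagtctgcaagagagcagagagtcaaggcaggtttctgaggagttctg
Isg15, chr4:156200769-156201068, minus strand: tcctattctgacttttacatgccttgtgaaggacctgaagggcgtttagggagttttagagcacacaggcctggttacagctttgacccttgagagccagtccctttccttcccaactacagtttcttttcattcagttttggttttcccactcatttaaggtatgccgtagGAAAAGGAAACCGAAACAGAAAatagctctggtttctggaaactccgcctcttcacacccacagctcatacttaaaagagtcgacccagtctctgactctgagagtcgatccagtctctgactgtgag
Rsad2, chr12:26456403-26456702, minus strand: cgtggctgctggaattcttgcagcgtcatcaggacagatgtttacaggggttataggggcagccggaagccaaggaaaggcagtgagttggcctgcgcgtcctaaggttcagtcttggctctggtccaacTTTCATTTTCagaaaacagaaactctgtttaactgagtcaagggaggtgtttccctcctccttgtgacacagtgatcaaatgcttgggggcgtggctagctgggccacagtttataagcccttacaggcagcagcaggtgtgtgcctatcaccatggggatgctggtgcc
Searched on both strands, overlapping matches counted, the motif was in a promoter of 16 of the 22 interferon-list genes found in the table (72.7%) and of 1079 of all 27025 genes (3.99%). It was in 0 of 12 immediate early genes, 0 of 18 cell-cycle genes and 3 of 12 MHC class I genes. A match is a description of these letters and not of binding.

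Single genes of the list showed the difference as fewer cells with a UMI. Rsad2, which encodes the antiviral enzyme viperin, was seen in 13 of 64 control cells (20.3%) and 2 of 108 cKO cells (1.85%). Its summed level was 204 CPM in control against 3.97 CPM in cKO, which is a ratio of 0.0195 (conditional binomial interval 0.0023 to 0.0733). Over all members the Rsad2 ratio was 0.281, and 95.9% of the cKO UMIs lay in mixed barcodes. Ifit1, an antiviral RNA-binding protein gene, was seen in 14 and 7 cells at 284 and 33.7 CPM, a ratio of 0.119 (0.0661 to 0.201). Zbp1, which encodes a sensor of Z-form nucleic acid, was seen in 15 and 5 cells at 124 and 9.91 CPM, a ratio of 0.0802 (0.0246 to 0.204). Slfn5, of the Schlafen family, was seen in 9 and 4 cells at 211 and 7.93 CPM, a ratio of 0.0377 (0.00996 to 0.101). The Slfn5 ratio over all members was 0.342 (0.243 to 0.48), and 93.4% of the cKO UMIs lay in mixed barcodes. Isg15, the ubiquitin-like modifier, was seen in 15 and 12 cells at 124 and 59.5 CPM, a ratio of 0.481 (0.287 to 0.8). The GTPase gene Igtp was within 2-fold (20 and 24 cells, ratio 0.565, 0.357 to 0.893).

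**Figure D3:**
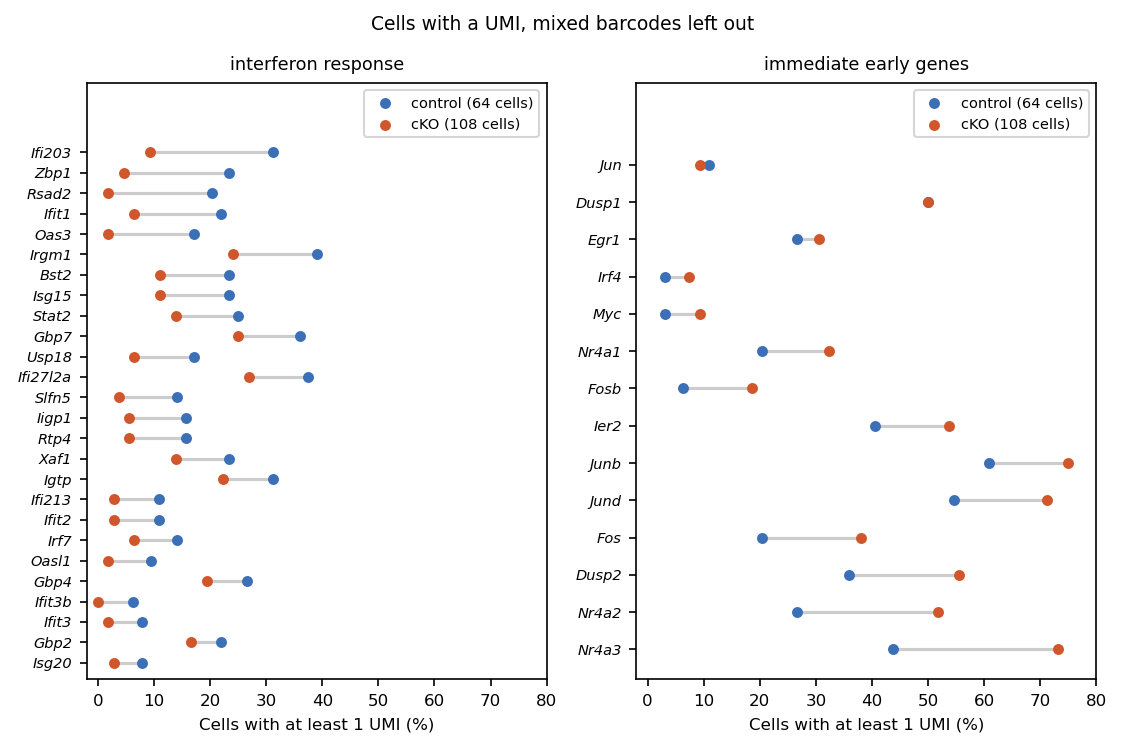
Share of cells with at least 1 UMI (x axis, percent) for 26 interferon-response genes (left) and 14 immediate early genes (right), without mixed barcodes (64 control cells in blue, 108 cKO cells in red, a grey line joining the pair). In all interferon genes shown the control share is the higher one, and in the immediate early panel the cKO share is higher except in Jun and Dusp1.

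The interferon difference lay in a minority of control cells. With each cell thinned to 1000 UMIs, the 29 list genes gave a median of 1 UMI per cell in both libraries, and a mean of 3.73 in control and 1.11 in cKO. At least 5 list UMIs were found in 13 of 64 control cells (20.3%) and 4 of 107 cKO cells (3.74%), and none in 23 (35.9%) and 51 (47.7%). Unthinned, 16 of 64 control cells and 2 of 108 cKO cells showed at least 10 genes of the list. These 16 cells were 5 Cd4, 4 Cd8 and 7 with neither, so no co-receptor class held them alone. They showed a median of 14 and up to 25 genes, at a median of 4843.5 UMIs, and held 0 UMIs of epithelial markers. The other 48 control cells showed a median of 2 genes at 4201.5 UMIs. Summed over cells, 5 control cells held 50.7% of the list's 1079 control UMIs, and 5 cKO cells held 20.7% of 550.

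Cell-free RNA of the control library was rich in the same transcripts. In barcodes with at most 100 UMIs, Rsad2 stood at 407 CPM in control and 49 in cKO, Ifit1 at 306 and 14, Isg15 at 387 and 42.9, and Zbp1 at 49.7 and 7.88. The cell-free level of Rsad2, Ifit1 and Isg15 in control was thus above the level in the alpha beta T cells themselves, and that of Zbp1 below it. Epithelial markers put the cell-free share of all members' UMIs at 1.05% in control and 3.71% in cKO, and with that share subtracted the list median over all members was -1.22. The rule left out barcodes with an Epcam UMI, so this share may be too low. It was not taken for the cells without mixed barcodes, and the part of cell-free RNA in their median was not tested.

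Immediate early genes, which T cell receptor signals and also tissue handling switch on within minutes, were higher in cKO cells. Of 14 measured genes 8 were at least 2-fold higher and 0 lower, beside 9.95% and 5.94% of all genes, with a median log2 ratio of 1.17. Over all members the median was 0.28, with 2 of 16 genes higher (12.5%), near the 8.37% of all genes. Within co-receptor classes the median was 1.53 in Cd4 cells (9 of 12 higher; 13.9% of all genes), 1.43 in Cd8 cells (8 of 11; 15.6%) and 0.71 in cells with neither (6 of 13; 12.8%).

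Dusp2, a phosphatase gene that lymphocyte activation induces, was seen in 23 control cells (35.9%) and 60 cKO cells (55.6%). It stood at 160 and 619 CPM, a ratio of 3.86 (2.84 to 5.34), and at 3.67 over all members. Its level was 116 and 143 CPM in Cd4 cells (7 of 20 and 8 of 30), 190 and 969 CPM in Cd8 cells and 173 and 704 CPM in cells with neither, so the values lay closest in Cd4 cells. Nr4a3, an orphan nuclear receptor gene induced through the T cell receptor, was seen in 28 (43.8%) and 79 (73.1%) cells at 264 and 761 CPM, a ratio of 2.88 (2.26 to 3.72) and of 3.20 over all members. Both genes kept their ratio with and without the mixed barcodes. Nr4a2, of the same receptor family, was seen in 17 and 56 cells at 170 and 448 CPM, a ratio of 2.63 (1.93 to 3.64) and of 1.24 over all members. Fos, a component of the AP-1 factor, was seen in 13 and 41 cells at 80.2 and 272 CPM, a ratio of 3.39 (2.18 to 5.47) and of 1.67 over all members. Fosb turned from a ratio of 0.567 over all members to 2.70 without mixed barcodes, which held 86.8% of its control UMIs. Junb, Egr1 and Myc were the other genes past 2-fold. Jun (7 and 10 cells, ratio 0.831, 0.343 to 2.09) and Dusp1 (32 and 54 cells, ratio 1.22, 0.878 to 1.71) did not differ beyond counting error.

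Unlike the interferon genes, the immediate early genes differed in the middle of the cells. At 1000 UMIs per cell the 16 genes gave a median of 1 UMI per cell in control and 4 in cKO, and at least 5 UMIs in 6 of 64 (9.38%) and 40 of 107 (37.4%) cells. None was found in 18 control cells (28.1%) and 9 cKO cells (8.41%). The dissociation stress list, kept apart from these genes, had a median log2 ratio of -0.26 over all members. There 0 of 14 genes were higher and 3 lower, beside 8.37% and 7.12% of all genes. Without mixed barcodes the median was -0.36, with 1 of 13 genes higher and 2 lower, beside 9.95% and 5.94%. The higher one was Zfp36, an mRNA-decay factor gene (19 and 48 cells, ratio 2.22, 1.5 to 3.4). The lower ones were the near-identical heat-shock genes Hspa1a (6 and 5 cells, ratio 0.27) and Hspa1b (7 and 3 cells, ratio 0.17), whose reads can be split between the copies. Handling of the tissue also induces immediate early genes, and its part in the difference was not tested.

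**Figure D4:**
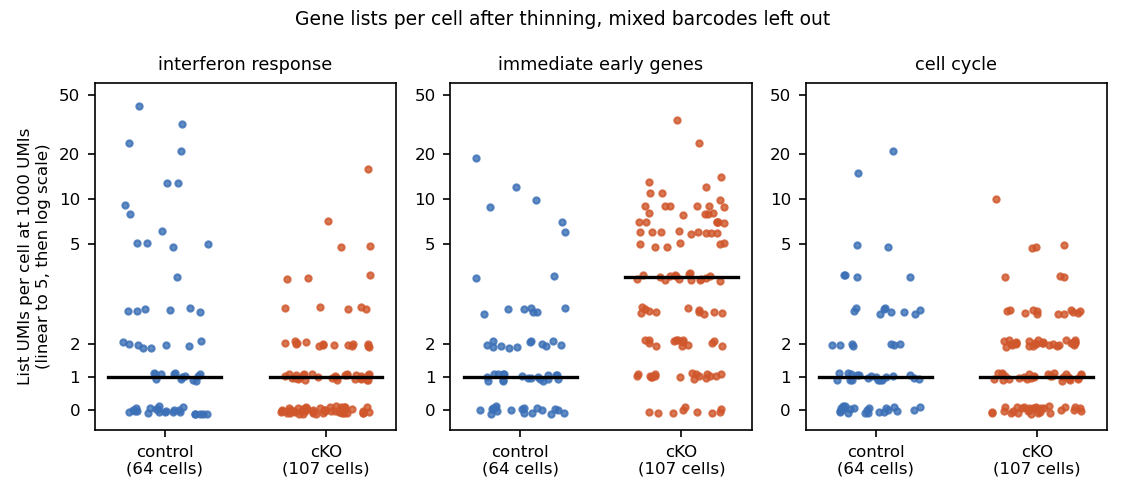
UMIs of the interferon-response, immediate early and cell-cycle lists per alpha beta T cell (y axis, linear to 5 and then log scale) after thinning to 1000 UMIs, without mixed barcodes, with each cell as a point and the median as a bar. The interferon panel has its high points in control with equal medians of 1, and the immediate early panel has medians of 1 in control and 4 in cKO.

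Cell-cycle genes were lower in cKO over the summed cells, and few control cells held most of their UMIs. Of 15 measured genes 8 were at least 2-fold lower and 0 higher, beside 5.94% and 9.95% of all genes, with a median log2 ratio of -1.30. Over all members it was -2.22, with 10 of 17 lower beside 7.12% of all genes. By co-receptor class the median was -2.87 in Cd4 cells (6 of 7 lower; 7.29% of all genes) and -1.30 in Cd8 cells (4 of 7; 7.79%). It was 0.58 in cells with neither (0 of 4; 7.82%), on the other side of 0. The class values rest on few cells, since at 1000 UMIs a control Cd4 cell held 21 list UMIs and a control Cd8 cell 15. The other control cells held at most 5. Top2a, the DNA topoisomerase of dividing cells, was seen in 8 cells of each library at 247 and 17.8 CPM, and 43.2% of the control UMIs lay in 1 cell. Mki67, the proliferation marker, was seen in 3 and 1 cells at 184 and 1.98 CPM, with 69.1% of the control UMIs in 1 cell. At least 2 of 5 proliferation markers were present in 3 of 64 control cells and 1 of 108 cKO cells. At 1000 UMIs the median per cell was 1 in both libraries, and 5 control cells held 64.3% of the list's UMIs against 14.4% for 5 cKO cells.

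The receptor complex itself was level between the libraries. Of 16 measured genes of the receptor and its first signalling steps 0 were 2-fold higher and 0 lower, with a median of 0.04. Over all members 0 were higher and 1 was lower, beside 8.37% and 7.12% of all genes, with a median of -0.18. Part of these genes chose the cells, so this is a description. Cd3e, a CD3 chain, stood at 358 and 369 CPM. Lck, the kinase bound to the co-receptors, stood at 160 and 151 CPM, and Zap70, the kinase of the phosphorylated receptor, at 114 and 105 CPM. Lat, the adaptor downstream of Zap70, was at the edge of the limit with 150 and 301 CPM, a ratio of 2 (1.43 to 2.86).

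**Figure D5:**
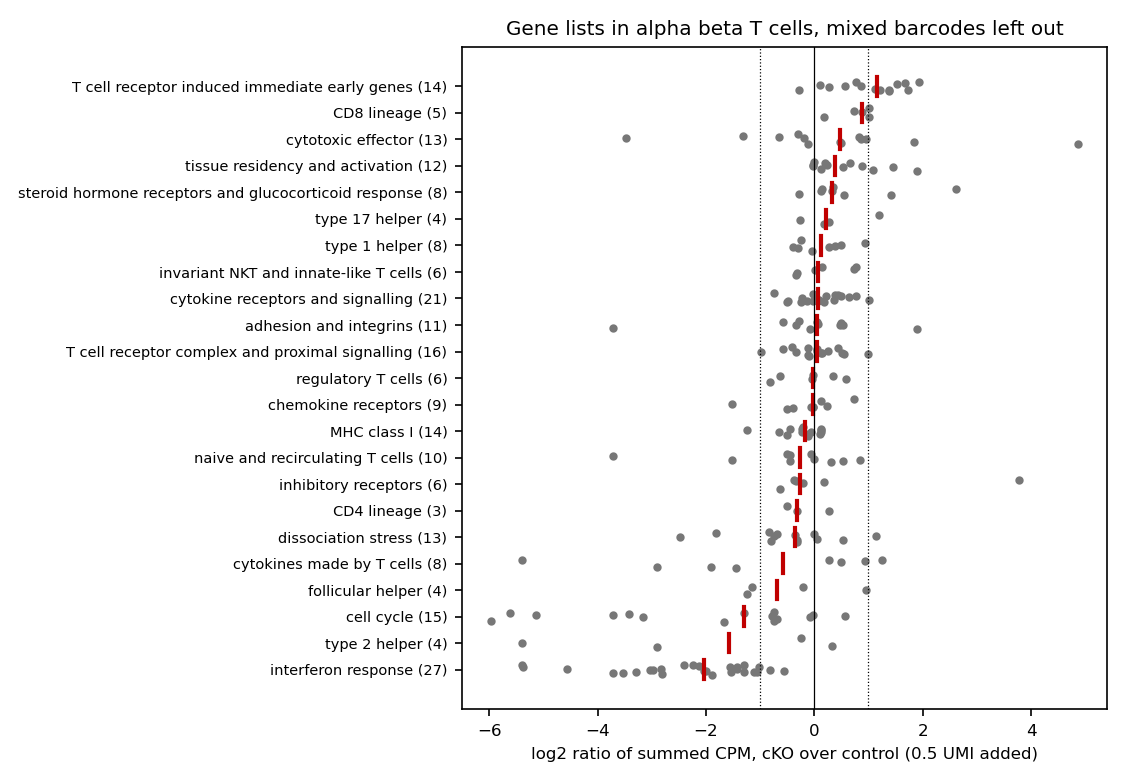
Log2 ratio of summed CPM, cKO over control with 0.5 UMI added (x axis), for each measured gene (points) of 23 lists (rows, number of genes in brackets), with the list median as a red bar and dotted lines at 2-fold, without mixed barcodes. The interferon list lies almost wholly left of the lower line with a median of -2.03, and the immediate early list has the highest median, 1.17.

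Of 12 measured tissue-residency genes 3 were at least 2-fold higher in cKO and 0 lower, beside 9.95% and 5.94% of all genes, with a median of 0.39 against 0.14 over all genes. Over all members 2 were higher and 0 lower, beside 8.37% and 7.12% of all genes, with a median of 0.49. Itga1, the collagen-binding integrin of resident memory cells, was seen in 9 control and 26 cKO cells at 43.4 and 167 CPM, a ratio of 3.83 (2.12 to 7.5). Rgs2, a regulator of G protein signalling, was seen in 49 and 91 cells, a ratio of 2.13 (1.85 to 2.45). The other past 2-fold was Prdm1, which encodes the differentiation factor Blimp-1. Rgs1, a relative of Rgs2 in resident T cells, was seen in 47 and 93 cells at a ratio of 1.83 (1.63 to 2.06). Cxcr6, a chemokine receptor of resident cells, was seen in 35 (54.7%) and 63 (58.3%) cells with a ratio of 0.979 (0.788 to 1.22), and Itgae, which encodes the epithelium-binding CD103, in 0 and 1 cells. The list's genes thus differed unequally.

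Of 10 measured genes of naive and recirculating cells 0 were higher and 2 lower, beside 9.95% and 5.94% of all genes. Over all members 2 of 11 were higher and 1 lower, beside 8.37% and 7.12%. Ccr7, a lymph node homing receptor gene, which mature dendritic cells also carry, was seen in 7 control and 6 cKO cells with a ratio of 0.342 (0.169 to 0.671), and 57.7% of its 26 control UMIs lay in 1 cell. Over all members the ratio of Ccr7 was 3.99, and 97.7% of its cKO UMIs lay in mixed barcodes. Tcf7, the factor of memory and naive cells, was common in both libraries, with 47 (73.4%) and 78 (72.2%) cells and a ratio of 0.729 (0.596 to 0.893).

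Of 13 measured cytotoxic genes 2 were higher and 2 lower (15.4% each), near the 9.95% and 5.94% of all genes, with a median of 0.47. Over all members 2 were higher and 2 lower, beside 8.37% and 7.12% of all genes. The median there was -0.05, on the other side of 0. Gzmk was seen in 8 control and 26 cKO cells at 43.4 and 161 CPM, a ratio of 3.70 (2.05 to 7.24). Ccl4, a chemokine of freshly activated cells, was seen in 2 and 7 cells with 2 and 122 UMIs, and 45.1% of the latter lay in 1 cell. Gzmb, the granzyme of fully armed killers, was seen in 4 and 3 cells at 164 and 13.9 CPM, with 53.1% of the control UMIs in 1 cell. Prf1, which encodes perforin, was seen in 8 and 12 cells, a ratio of 0.396 (0.205 to 0.745). Of the CD8 list 0 of 5 genes were past 2-fold over all members, beside 8.37% higher and 7.12% lower of all genes, with a median of 0.24. Without mixed barcodes 2 of 5 were higher, beside 9.95% of all genes, both by a small margin. They were Runx3 (ratio 2.03, 1.6 to 2.6) and Eomes (13 and 32 cells, 144 and 293 CPM, ratio 2.04, 1.45 to 2.94). By cells, Eomes was more frequent in cKO within the Klre1 or Fcer1g set (4 of 16 and 20 of 30) and not in the other cells (9 of 48 and 12 of 78).

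Among cytokines made by T cells 1 of 8 measured genes was higher, near the 9.95% of all genes, and 4 were lower, beside 5.94%. Over all members the counts were 1 and 4 of 8, beside 8.37% and 7.12% of all genes. Tgfb1, which encodes the suppressive cytokine TGF-beta, was seen in 28 control (43.8%) and 64 cKO (59.3%) cells at 190 and 456 CPM, a ratio of 2.39 (1.78 to 3.26). Ltb, which encodes lymphotoxin beta, was seen in 37 (57.8%) and 33 (30.6%) cells at 421 and 155 CPM, a ratio of 0.367 (0.273 to 0.491). Both kept their direction over all members, with ratios of 2.45 and 0.291. The other lower genes were Il5, Tnfsf8 (9 and 8 cells, 51.9% of control UMIs in 1 cell) and Areg (1 and 0 cells). Ifng, the main cytokine of type 1 cells, was seen in 5 and 8 cells, and Tnf in 3 and 10. Cytokine receptor genes were mostly level, with 1 of 21 higher and 0 lower, beside 9.95% and 5.94% of all genes. Over all members 1 of 22 was higher and 1 lower, beside 8.37% and 7.12%. The higher one without mixed barcodes was Il21r, the receptor of the helper cytokine interleukin 21 (27 and 68 cells, ratio 2.03, 1.53 to 2.74).

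The same lists were read in the neighbouring lymphocytes, which share libraries, cell-free RNA and handling with the alpha beta T cells. In gamma delta T cells the interferon median was -1.92 (21 of 25 lower; 4.75% of all genes) and in natural killer cells -2.69 (25 of 26; 8.78%). The interferon difference was thus not particular to alpha beta T cells. The immediate early median was 0.60 in gamma delta T cells (3 of 14 higher; 8.47%) and 1.13 in natural killer cells (8 of 14; 10.7%). Nr4a3 had a log2 ratio of 1.52 in alpha beta T, 0.87 in gamma delta T and 1.91 in natural killer cells. Without mixed barcodes the cytotoxic list had a median of 0.47 in alpha beta T and 2.32 in gamma delta T cells (9 of 10 higher; 8.47% of all genes). In natural killer cells it was -0.47, with 2 of 14 higher and 6 lower, beside 10.7% and 8.78%. With 1 library per group, no difference between these kinds of cell could be tested.

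The genes with the largest ratios over all members, named by a rule of size, mostly came from mixed barcodes. Among 12 genes highest in cKO, 11 had over 50% of their cKO UMIs there, such as Ccl22 (30 and 414 UMIs), a chemokine of mature dendritic cells, and Cd74 (230 and 1610 UMIs), the MHC class II chaperone, with 99.8% each. Spp1, Marcks, H2-Ab1, Tnfrsf11a, Ccr7, Ivd, Tnip3, Il1b and Etv3 were the others, and Klra8 was the exception with 36.4%. Among the 12 lowest, Cryab, Medag, Igfbp3, Cxcl12 and C1qtnf3 had over 50% of their control UMIs in mixed barcodes, and Cryab, a small heat-shock protein gene, had 99.7% of 350. Nusap1, Top2a, Pclaf, Prc1 and Hist1h1b belong to dividing cells, and Cmpk2 and Zbp1 to the interferon response.

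The same rule without mixed barcodes, added after the data were seen, named other genes, with 2 of the 12 higher and 4 of the 12 lower in common. Irf8, a transcription factor gene of activated lymphocytes and myeloid cells, was seen in 8 control and 25 cKO cells at 140 and 595 CPM, a ratio of 4.24 (3.06 to 6). Of its 42 control UMIs in these cells 57.1% lay in 1 cell, and its ratio over all members was 2.16. Rhoq, which encodes a small GTPase, was seen in 9 and 42 cells, a ratio of 3.99 (2.31 to 7.4). The Rhoq ratio over all members was 1.56 (1.11 to 2.25), within 2-fold, and 65.9% of its control UMIs lay in mixed barcodes. Lmtk2, a kinase gene, was seen in 3 and 29 cells and Mapk8ip3 in 1 and 25, at 10 against 71.4 CPM and 3.34 against 61.5 CPM. Their ratios over all members were 2.34 (1.17 to 5.19) and 1.43 (0.763 to 2.84), the latter within counting error. Mixed barcodes held 70% and 92.9% of their control UMIs. Klra8 was seen in 0 and 8 cells with 0 and 21 UMIs. Pdp1 was seen in 0 and 19 cells with 0 and 22 UMIs, Apbb2 in 0 and 7, Selenon in 2 and 17, and Spp1 in 2 and 7, and Ccl4, Dusp2 and Nr4a3 completed the list. All members together held 4 and 23 UMIs of Pdp1 and 8 and 47 of Apbb2, with 100% of the control UMIs of both in mixed barcodes.

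On the lower side stood Slfn5, Zbp1, Ifi203 and Iigp1 of the interferon list. Cmpk2, the neighbour of Rsad2 and a nucleotide kinase gene, was seen in 12 control and 2 cKO cells, a ratio of 0.0363 (0.00724 to 0.113). Parp14, of the ADP-ribosyltransferases, was seen in 27 and 30 cells at 324 and 87.2 CPM, a ratio of 0.269 (0.184 to 0.388). Trim30a was seen in 33 and 30 cells at 304 and 89.2 CPM, a ratio of 0.293 (0.201 to 0.424). Herc6 (15 and 8 cells), Iigp1 (10 and 6), Ifi203 (20 and 10), Daxx (15 and 8) and Fam160a2 (15 and 6) lay at ratios of 0.124 to 0.19. In the same order their ratios over all members were 0.297, 0.509 (within 2-fold), 0.335, 0.224 and 0.244. The cell-cycle gene Hist1h1b was seen in 7 and 6 cells, with 40.0% of its control UMIs in 1 cell, and Top2a was the last of the 12. All 12 were seen in a smaller share of cKO cells, which their choice by a low ratio largely fixed.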

How the data were processed

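The deposited values were raw UMI counts per gene and barcode for 32285 genes, unfiltered, which the authors made with Cell Ranger 4 per the file headers and Cell Ranger 6.1.1 on mm10 per the submitters' processing notes. Counting settings are not given in the sources used here. The members and gene lists were chosen with earlier results of these data known. Members' counts were summed per library and scaled to CPM. Log2 ratios carry a pseudocount of 0.5 UMI. Intervals are exact (95%: Poisson for CPM, Clopper-Pearson for shares, conditional binomial for ratios) and cover counting error only, and a count of 0 was read as allowing 3 counts. No p-value is given, since each group is 1 library and cells are not replicates. List genes needed 10 UMIs over both libraries, and a call is a 2-fold ratio. Shares and per-cell sums were also taken after thinning cells to 1000 UMIs, leaving out shallower ones. Genes were named by the ratio's interval limit nearer to 1, as the 12 highest and 12 lowest with at least 20 UMIs in 5 cells of the higher library and at most 50% in 1 cell. Their CPM there also had to reach that of cell-free barcodes (at most 100 UMIs). Mitochondrial, ribosomal, haemoglobin, immunoglobulin and predicted genes, T cell receptor variable segments and the genes of the member rule were left out. List genes were named for their UMIs or after their values were seen, and a few are not reported here. Doublets were scored against simulated doublets (2 per cell, rate 0.06) and none were removed, since the score reached 0.25 in 20 (0.547%) and 66 (1.33%) passing barcodes. The counting scripts were tested on simulated data. Python 3.11.15, numpy 2.4.6, scipy 1.17.1, pandas 2.3.3, scikit-learn 1.9.0 and matplotlib 3.10.9 were used.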

Additional observations from a re-analysis of the deposited data

How the results depend on the processing

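No paired analysis was possible because each group is 1 library, and for the same reason no replicate could be left out. Counts of alpha beta T cells (74 and 128) and their depth limit what can be seen. A gene at 0 may still have a UMI in a few percent of such cells, and a cell without a UMI may still express it. The share in control moved from 2.03% to 2.65% with at least 1000 genes per barcode, 2.84% without Epcam-positive barcodes and 31.9% of lymphoid cells. In cKO it moved from 2.59% to 3.12% with at least 1000 genes, 1.94% with at least 2 Cd3 UMIs and 12.01% of lymphoid cells. Over all members 797 genes were at least 2-fold higher and 678 lower in cKO. The higher count was 483 after thinning, 470 with a pseudocount of 2 UMIs, 374 for genes with at least 30 UMIs and 1799 for genes with at least 1. The lower count was 271 after thinning, 443 without mixed barcodes, 251 for at least 30 UMIs and 2573 for at least 1.

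The interferon median over all members (-1.24) lay between -2.03 (mixed barcodes left out) and -1.08 over 17 alternatives. The immediate early median (0.28) lay between 0.23 and 1.17, the latter without mixed barcodes. The cell-cycle median (-2.22) was -0.25 after thinning and 0.12, the opposite sign, with cycling cells, chosen by genes of the same kind, left out. Without mixed barcodes the log2 ratio turned sign for Ccr7 (-1.53), Tnip3 (-3.08), Cd74 (-2.54), Il1b (-0.75), Igfbp3 (0.83) and Cxcl12 (0.83), where few or no UMIs of most of these genes were left. Cryab turned to 1.24 without the deepest 5% of cells, and Klra8 to -0.70 without cells holding 2 natural killer genes. Median-of-ratios scaling shifted every log2 ratio by 0.04. The settings without mixed barcodes and without cells holding a Trdc or Tcrg-C1 UMI were chosen after seeing the data.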

Other observations

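Genes that steroid hormones act through were read in the alpha beta T cells as well, without mixed barcodes. Nr3c1, which encodes the glucocorticoid receptor, was seen in 55 of 64 control cells and 97 of 108 cKO cells at 735 and 932 CPM, a ratio of 1.27 (1.08 to 1.49). Esr1 and Pgr, the oestrogen and progesterone receptor genes of the uterine wall, were seen in 0 and 1 cells and in 1 and 6 cells. Over all members 97.5% of the 40 control and 94.4% of the 124 cKO UMIs of Pgr lay in mixed barcodes. Over all members 3 of 10 genes of the list were at least 2-fold higher in cKO and 0 lower, beside 8.37% and 7.12% of all genes. Without mixed barcodes 2 of 8 measured genes were higher and 0 lower, beside 9.95% and 5.94%. The 2 genes were the glucocorticoid-induced Tsc22d3 (18 and 55 cells, 86.9 and 236 CPM, ratio 2.72, 1.76 to 4.33) and Fkbp5 (1 and 14 cells, ratio 8.9, 1.37 to 375).

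MHC class I genes, most of them also interferon targets, differed little, with 0 of 14 genes at least 2-fold higher and 1 lower. Beside them stood 9.95% and 5.94% of all genes. Over all members 0 of 14 were past 2-fold either way, beside 8.37% higher and 7.12% lower. H2-K1 and B2m, the heavy and light chain genes, were seen in all 64 and all 108 cells, each with a ratio of 1.09. The gene past the limit without mixed barcodes was Psmb9, of the immunoproteasome, seen in 16 and 9 cells at 56.8 and 23.8 CPM, a ratio of 0.419 (0.183 to 0.93). Among chemokine receptors 0 of 9 genes were higher and 1, Ccr7, was lower, beside 9.95% and 5.94% of all genes. Over all members 2 of 10, Ccr7 among them, were higher and 0 lower, beside 8.37% and 7.12%. Cxcr3, the receptor for interferon-induced chemokines, was seen in 24 (37.5%) and 29 (26.9%) cells, a ratio of 0.76 (0.467 to 1.25). Cxcr4, which binds the stromal chemokine CXCL12, was seen in 41 (64.1%) and 92 (85.2%) cells at a ratio of 1.66 (1.4 to 1.98).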
